A study of Homo sapiens with 11 samples.

Results

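CEM/BTZ7 cells, which grow in the proteasome inhibitor bortezomib (BTZ), were compared with their drug-sensitive parent at the same drug dose. Both belong to CCRF-CEM, an established human line of T lymphoblasts from an acute leukemia. The parental cells (CEM/WT_BTZ, 3 samples) had been given 7 nM BTZ for 24 h, and CEM/BTZ7 (3 samples), the subline selected for resistance to 7 nM, was in 7 nM BTZ that had been refreshed 24 h before RNA isolation. These 6 samples, chosen by their titles, came from 2 of the 6 groups and are 6 of the 11 samples that the series holds. By the labels the sublines stayed in BTZ throughout, whereas the methods of the study put a drug-free week before the final exposure. CEM/BTZ7 is 1 subline of 1 parental line, and the study describes its BTZ-resistant sublines as carrying PSMB5 mutations. Untreated cells were not part of this comparison, so a difference in the response to the drug and a difference between the lines that was there without drug cannot be told apart.

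The proteasome degrades proteins tagged with ubiquitin, and BTZ binds its β5 subunit, the product of PSMB5. When degradation stalls, misfolded proteins pile up in the cytosol and the endoplasmic reticulum (ER). Cells answer with heat shock chaperones, which refold proteins, and with the integrated stress response, in which ATF4 and CHOP drive genes for amino acid supply, redox defence and, after long stress, cell death. T cell leukemia cells are known to be sensitive to proteasome inhibitors.

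RNA was hybridised to Agilent whole human genome arrays. Each sample was labelled with Cy3 or Cy5, and each group held both dyes (CEM/WT_BTZ 2 in Cy3 and 1 in Cy5, CEM/BTZ7 1 in Cy3 and 2 in Cy5). Values below are levels, meaning log2 of the quantile-normalized intensity of a gene's brightest probe, and differences are log2 fold changes (CEM/BTZ7 minus CEM/WT_BTZ) from limma with the dye as a covariate, given with their standard error (SE). Median spot intensities were 171 to 201 per sample, and 78.3% to 89% of the probes of a sample were above background, here the 95th percentile of the negative control spots on it. Samples of the same group correlated at 0.968 to 0.986 and samples of different groups at 0.943 to 0.958. Whether replicates were separate cultures is not stated, so the spread behind each p-value is that of these samples and possibly only technical. In bulk RNA, fewer cells of a type and less RNA per cell cannot be told apart.

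Of 17165 genes tested, 2894 (16.9%) were called at a Benjamini-Hochberg adjusted p under 0.05. In CEM/BTZ7, 1630 genes (9.5%) were higher and 1264 (7.36%) lower, and 340 and 295 of these differed by more than 4-fold. Over all genes the median log2 fold change was 0.014, a value that quantile normalization holds near 0. The number of calls rested on having all samples: without any one of the 6, between 676 (without CEM/BTZ7 replicate 2) and 1507 (without CEM/WT_BTZ replicate 3) genes were called. With the replicate number as a block, 7295 genes were called, and samples of the same number varied together. The block called 22.5% of all genes higher and 20% lower, and block counts of lists below are to be read against these shares. Counts of list members are to be read against the 9.5% of all genes higher and 7.36% lower. They are given with their leave-one-out range, the lowest and highest count when 1 of the 6 samples was left out. Fewer of all 17165 genes were called in those fits too, 355 to 833 higher and 287 to 674 lower. Several genes named below are ones the study names from these same samples, DNAJB1, DDIT3, HSPA1A, CXCL8 and MARCKS among them, so lists that hold them are not independent evidence of their direction. A gene named below as called kept its call when each sample was left out in turn unless the text says otherwise.

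The largest rise was in TMSB15A, a thymosin that binds monomeric actin. Its levels were 7.38, 7.38 and 5.22 in CEM/WT_BTZ and 14.03, 14 and 13.83 in CEM/BTZ7, a log2 fold change of 7.62 (SE 0.535, adjusted p = 0.00444, limma), or 197-fold. All CEM/BTZ7 samples lay far above the parental range, and the 2 Cy3 parental samples were the higher of the 3. B3GNT5, a glycosyltransferase of lactosphingolipid synthesis, was at 5.04, 4.62 and 2.77 in CEM/WT_BTZ and 9.88, 9.92 and 9.59 in CEM/BTZ7 (5.94, SE 0.551, adjusted p = 0.00667), with 2 of the 3 parental samples above background. MARCKS, a membrane-bound protein kinase C substrate that sequesters phosphoinositides and cross-links actin, rose from 7.1, 5.98 and 7.41 to 13.16, 12.93 and 12.56 (5.83, SE 0.358, adjusted p = 0.00414).

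CD1E, a lipid-transfer protein of antigen presentation, was higher by 5.67 (SE 0.26) and EPCAM, an epithelial adhesion molecule, by 5.57 (SE 0.197). For EPCAM the parental levels of 6.28, 5.92 and 6.4 and the CEM/BTZ7 levels of 11.99, 12.05 and 11.61 were each tightly grouped. HS6ST2, a heparan sulfate sulfotransferase, and AADAT, an aminotransferase of lysine and tryptophan breakdown, were below background in all parental samples and above it in all CEM/BTZ7 samples, at least 23.6-fold and 19.2-fold higher. The floor of these bounds is each sample's background, and they hold for the quantile-normalized values only. In the deposited value table the log2 fold changes were smaller, at 2.52 for HS6ST2 and 2.07 for AADAT. HS6ST2 had a second probe with a log2 fold change of 0.08.

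The 12 largest rises were completed by ALDH7A1 (5.24), NPTX2 (5.22), RTKN2 (5.13), ENAH (5.06) and FAM131A (4.85). ALDH7A1 is an aldehyde dehydrogenase, NPTX2 a secreted pentraxin, and ENAH an actin filament elongation factor. ENAH varied most among the parental samples (5.19, 2.89 and 6.69, against 10.74, 10.67 and 10.15 in CEM/BTZ7), and its call was lost without CEM/WT_BTZ replicate 3, CEM/BTZ7 replicate 2 or CEM/BTZ7 replicate 3. Other probes gave smaller values for ALDH7A1 (down to -0.61), FAM131A (down to 0.4) and ENAH (down to 1.73).

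Among autosomal genes the fall with the largest value was in CXCL8, the neutrophil chemokine interleukin-8. Its levels were 10.84, 9.93 and 10.18 in CEM/WT_BTZ and 2.71, 2.81 and 4.22 in CEM/BTZ7 (log2 fold change -6.79, SE 0.403, adjusted p = 0.00372), where 1 of the 3 samples exceeded background. Its place rested on this dim probe, since it was at -4.21 in the deposited value table and at -6.16 without CEM/WT_BTZ replicate 3, both smaller than HSPA6 in the same fit (-5.7 and -6.76). HSPA6, a strictly stress-inducible HSP70, followed with 13.46, 13.72 and 14.37 against 8.24, 8.57 and 6.83 (-6.36, SE 0.267, adjusted p = 0.00221). The AP-1 subunit JUN was at 14.91, 15.92 and 15.61 against 9.19, 10.31 and 9.47 (-5.91, SE 0.434, adjusted p = 0.00444). For all 3 genes the groups stood apart by more than their own spread.

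STK32B, a serine/threonine kinase, CYTL1, a secreted cytokine-like protein, and MCTP1, a calcium-binding membrane protein, had log2 fold changes of -5.82 (SE 0.189), -5.42 (SE 0.229) and -5.33 (SE 0.353), with 2 of the 3 CEM/BTZ7 samples above background for MCTP1. The non-coding RNA GIRGL had a difference of -5.56 (SE 0.407) and PNMA8A one of -5.3 (SE 0.218), although another PNMA8A probe gave -0.44. TMEM71 (-5.01), DNAJC12 (-4.91), CXCL1 (-4.89) and the histone gene H4C1 (-4.73) completed the 12 largest autosomal falls. The call of CXCL1 was lost without any one of 5 samples (all but CEM/BTZ7 replicate 1), and CEM/BTZ7 replicate 1, at 6.52, lay well above the other CEM/BTZ7 samples (3.47 and 3.29). That of H4C1 was lost without CEM/BTZ7 replicate 3. Dim genes had smaller differences in the deposited value table, where all of those named here kept their calls, such as B3GNT5 (3.12), CD1E (3.25), AADAT (2.07), HS6ST2 (2.52), NPTX2 (2.92), RTKN2 (2.73), ENAH (3.2), STK32B (-3.2), GIRGL (-2.86), CYTL1 (-3.26), MCTP1 (-2.35), DNAJC12 (-2.39) and CXCL1 (-2.62). With the mean of all probes HS6ST2 was at 2.67, ALDH7A1 at 2.76, FAM131A at 2.67, ENAH at 3.19 and PNMA8A at -3.34.

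**Figure D1:**
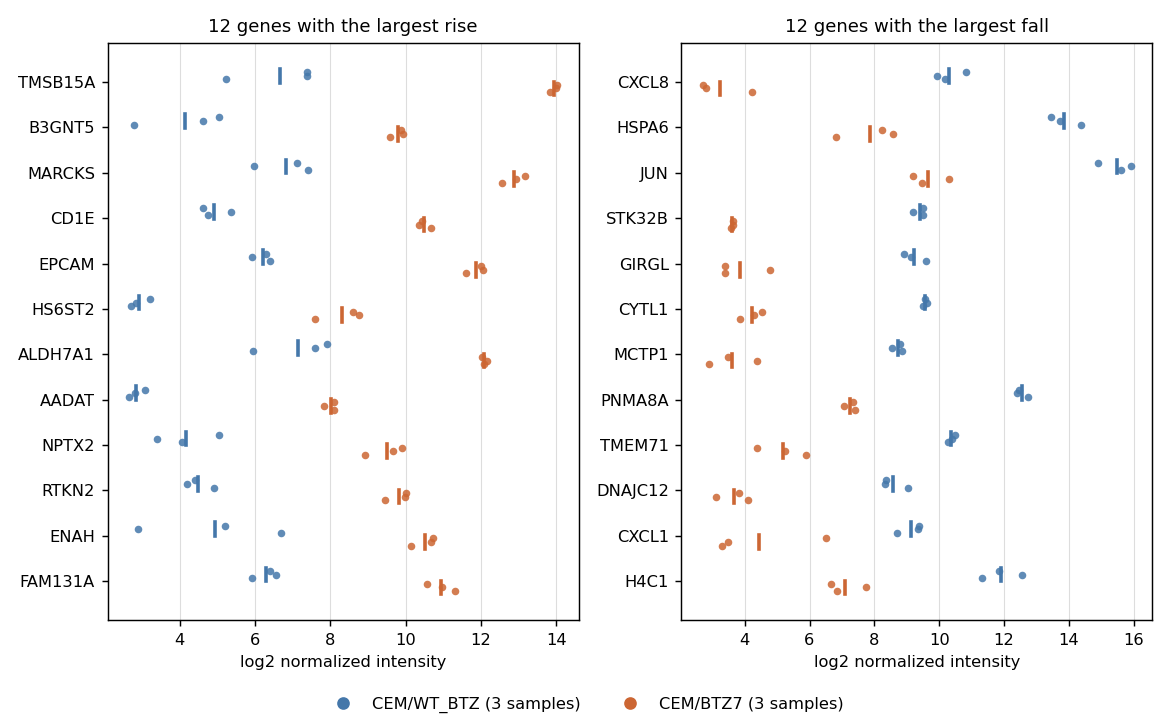
Levels (log2 normalized intensity, horizontal axis) of the 12 genes with the largest rise (left) and the 12 autosomal genes with the largest fall (right), called and not overlapping between groups. Each point is 1 sample, blue for CEM/WT_BTZ and orange for CEM/BTZ7, and the vertical bars are group means. TMSB15A lies at 5.22 to 7.38 in CEM/WT_BTZ and at 13.83 to 14.03 in CEM/BTZ7, and CXCL8 at 9.93 to 10.84 and 2.71 to 4.22.

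Several inducible heat shock genes were lower in CEM/BTZ7, among them HSPA6, DNAJB1 and HSPA1A. Of 18 HSP40 cochaperones measured, which hand clients to HSP70, 9 fell and 0 rose, against 7.36% of all genes lower and 9.5% higher (leave-one-out 5 to 7 fell and 0 rose, 12 fell and 3 rose with the replicate block), with a median log2 fold change of -0.92. Of 12 HSP70 and HSP110 genes, 3 fell and 1 rose (3 fell in every leave-one-out fit, 0 or 1 rose, 6 fell and 2 rose with the replicate block), with a median of -0.76. DNAJB1, the main inducible HSP40, was at 16.86, 16.25 and 16.89 in CEM/WT_BTZ and at 12.27, 12.15 and 12.16 in CEM/BTZ7 (-4.54, SE 0.245, adjusted p = 0.00323). The 3 CEM/BTZ7 values hardly differed among themselves. HSPA1A, the classic inducible HSP70, was at 17.25, 16.44 and 16.8 against 13.24, 12.77 and 13.85 (-3.4, SE 0.348, adjusted p = 0.00741), and its near-identical copy HSPA1B may contribute to this signal.

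The nucleotide exchange factor HSPH1 fell by 3.13 (SE 0.228) and the cochaperone DNAJB4 by 3.63 (SE 0.402). BAG3, which links HSP70 to selective autophagy, was at 11.13, 10.77 and 11.69 against 8.99, 9.07 and 9.03 (-2.29, SE 0.252, adjusted p = 0.0085). The HSP90 cochaperone CHORDC1 fell by 2.18 (SE 0.326), a call that was lost without CEM/WT_BTZ replicate 3, CEM/BTZ7 replicate 2 or CEM/BTZ7 replicate 3. The 1 gene that rose in the HSP70 list was HSPA2, a testis-enriched HSP70 (1.75, SE 0.306). Its call was lost without any one of 4 samples and without the dye term, with or without the replicate block. It was also lost when the dye was assigned by match to the value table.

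Fewer of the other chaperones were called. Of 13 genes of the HSP90 machinery and heat shock factors, 1 fell and 1 rose (median -0.11, leave-one-out 0 or 1 each way, 6 fell and 2 rose with the replicate block). Of 10 chaperonins, which fold proteins in a closed chamber, 1 fell (median 0.29, leave-one-out 0 fell and 0 to 2 rose). This was the mitochondrial HSPE1, with a difference of -0.96 (SE 0.173), and its call was lost without any one of the 6 samples. The chaperonin median was -0.19 after scaling to the 75th percentile and -0.34 in the deposited value table, so no direction is given for that list. Among 12 small heat shock, BAG and clusterin genes 3 fell and 1 rose (median -0.25, leave-one-out 2 or 3 fell and 0 rose, 5 fell and 2 rose with the replicate block).

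The heat shock element, the binding site of heat shock factors, is made of alternating GAA and TTC units. A 3-unit element (GAA-NN-TTC-NN-GAA or TTC-NN-GAA-NN-TTC, both strands) was searched in the 250 bases before the start of each gene in RefSeq (GRCh38.p14). It was present in 0.439% of 27305 promoters and in 4 of the 56 heat shock and chaperone genes measured that have a promoter entry (7.14%). These were HSPA6, CHORDC1, DNAJB6 and HSPA8, of which 3 were called lower and HSPA8 was not called by the quantile-normalized values. DNAJB1, HSPA1A, HSPH1, DNAJB4 and BAG3, which fell as well, were not among them. With 4 holders, a relation between the element and a fall cannot be read from these counts and was not tested. DNAJB6, named for its motif, fell by 2.03 (SE 0.172). The 100 bases before the start of 3 of them are shown, 5′ to 3′, because they carry the element in a gene that fell steeply, one that fell less and one that was not called, with the element in capitals (overlapping elements merge in CHORDC1).
HSPA6 (chr1:161524440-161524539, + strand): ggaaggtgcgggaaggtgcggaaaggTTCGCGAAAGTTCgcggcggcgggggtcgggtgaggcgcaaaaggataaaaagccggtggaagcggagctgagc
CHORDC1 (chr11:90223050-90223149, - strand): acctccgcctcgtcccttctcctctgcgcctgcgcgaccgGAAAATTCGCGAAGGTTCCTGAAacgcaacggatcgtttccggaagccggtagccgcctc
HSPA8 (chr11:123062137-123062236, - strand): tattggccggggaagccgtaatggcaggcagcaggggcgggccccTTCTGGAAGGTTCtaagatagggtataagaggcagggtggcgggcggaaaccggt
The element began 74 bases before the start in HSPA6, at 60, 55 and 50 bases in CHORDC1, and at 55 and 230 bases in HSPA8. HSPA8, the constitutive HSP70, was chosen after its values were seen. Its levels of 18.16, 17.72 and 18.66 in CEM/WT_BTZ overlapped those of 18.51, 17.63 and 18.52 in CEM/BTZ7 (log2 fold change 0.00, SE 0.402). That result rested on the normalization, since HSPA8 was called lower after 75th percentile scaling (-1.38) and in the deposited value table (-1.7), and its other probes ranged down to -1.37. A match is a description of these letters and not a measured binding site.

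Several targets of the integrated stress response were lower as well. Of 21 ATF4-CHOP genes, 11 fell and 0 rose (leave-one-out 6 to 9 fell and 0 or 1 rose, 14 fell and 1 rose with the replicate block), with a median of -1.1, and 20 of the 21 differences were negative. PPP1R15A, the phosphatase subunit that ends the block of translation, was at 13.08, 13.2 and 12.79 in CEM/WT_BTZ and at 9.11, 9.19 and 8.32 in CEM/BTZ7 (-4.23, SE 0.309, adjusted p = 0.00444). DDIT3, which encodes CHOP, was at 11.54, 12.17 and 12.19 against 7.7, 8.23 and 8.05 (-4.02, SE 0.291, adjusted p = 0.00444). Parental and resistant samples were more than 3 log2 units apart for both genes.

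TRIB3, a CHOP-induced pseudokinase, was at 18.08, 18.06 and 18.41 against 15.27, 15.46 and 15.59 (-2.76, SE 0.216, adjusted p = 0.00503), still bright in CEM/BTZ7. The death receptor TNFRSF10B fell by 4.19 (SE 0.713), with a wide spread among CEM/BTZ7 (4.59, 6.01 and 6.8) and a call that was lost without CEM/WT_BTZ replicate 3 or CEM/BTZ7 replicate 2. It was the 1 gene called among 20 death receptors and caspases (5% lower, against 7.36% of all genes). With the replicate block 6 of that list were lower and 3 higher.

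Among 27 genes of amino acid synthesis, uptake and tRNA charging, 2 were lower (7.41%) and 3 higher (11.1%). These shares were close to those of all genes (7.36% and 9.5%). The median was -0.37 (leave-one-out 1 to 3 lower and 0 to 2 higher). With the replicate block 9 were lower and 3 higher. SLC7A11, the cystine transporter, fell from 12.38, 12.03 and 11.58 to 9.17, 8.83 and 8.7 (-3.04, SE 0.295, adjusted p = 0.00706). ASNS, asparagine synthetase, fell by 2.19 (SE 0.291), a call that was lost without CEM/BTZ7 replicate 2. ALDH18A1 and PYCR1, enzymes of proline synthesis, were higher by 1.71 (SE 0.314) and 1.63 (SE 0.376). The calls of both were lost without any one of several samples (4 for ALDH18A1, 5 for PYCR1), and that of PYCR1 also after 75th percentile scaling and with the mean of its probes.

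In the ER, 6 of 26 chaperone and ER-associated degradation genes fell and 0 rose (leave-one-out 1 to 3 fell and 0 rose, 11 fell and 1 rose with the replicate block), with a median of -0.41. HERPUD1, a scaffold of ER-associated degradation, was at 16.04, 15.89 and 15.5 against 13.57, 13.65 and 14.34 (-1.76, SE 0.186, adjusted p = 0.00792). HSPA5, the ER HSP70 also called BiP, fell by 1.64 (SE 0.342), and its call was lost without any one of 5 samples (all but CEM/WT_BTZ replicate 2). The falls in these ER genes were smaller than those of DDIT3 or PPP1R15A on the log2 scale.

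Of 20 NRF2 targets, genes of the oxidative stress response, 7 fell and 1 rose (leave-one-out 3 to 6 fell and 0 or 1 rose), with a median of -0.57. HMOX1, heme oxygenase, was at 11.62, 11.57 and 12.6 against 9.69, 9.43 and 9.79 (-2.42, SE 0.324, adjusted p = 0.0123). The 1 gene that rose was SOD2, the mitochondrial superoxide dismutase (1.7, SE 0.23), but its probes ranged from -2.3 to 1.7, and its call was lost with their mean and without CEM/BTZ7 replicate 2 or 3. With the replicate block 11 fell and 4 rose.

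Some autophagy genes were lower. Of 31, 8 fell, 1 rose and 22 were not called (leave-one-out 3 to 5 fell and 0 or 1 rose, 13 fell and 1 rose with the replicate block), with a median of -0.4. MAP1LC3B, which coats autophagosomes, was at 13.66, 13.64 and 13.69 in CEM/WT_BTZ and at 11.48, 11.72 and 11.4 in CEM/BTZ7 (-2.17, SE 0.185, adjusted p = 0.00591), and its paralog GABARAPL1 fell by 1.91 (SE 0.215), a call lost without CEM/BTZ7 replicate 3. The cargo receptor SQSTM1 fell by 2.54 (SE 0.189) on its brightest probe, but a second probe gave 0.51 and the call was lost with the mean of both.

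Immediate early genes, whose transcripts appear within minutes of a stimulus, included many genes that were lower. Of 26 EGR, IER and DUSP genes and others of this class, 13 fell and 1 rose (leave-one-out 6 to 11 fell and 1 rose, 15 fell and 3 rose with the replicate block), with a median of -1.37 (-0.96 in the value table). EGR1, a zinc finger factor, was at 8.96, 8.62 and 8.14 against 4.05, 4.25 and 4.71 (-4.04, SE 0.201, adjusted p = 0.00292, and -1.9 in the value table). DUSP8, a phosphatase of JNK, fell by 2.68 (SE 0.253), though another of its probes gave -0.14 and the mean of its probes -1.78. The 1 gene that rose was MYC, described below with its targets.

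Of 19 AP-1 subunit and GADD45 genes, 6 fell and 2 rose (leave-one-out 3 or 4 fell and 0 to 2 rose, 11 fell and 2 rose with the replicate block), with a median of -0.92. Besides JUN, the DNA damage and stress gene GADD45A was at 14.16, 13.47 and 13.61 against 10.78, 10.36 and 10.9 (-2.98, SE 0.275, adjusted p = 0.00662). BATF and BATF3, dimer partners of JUN in lymphocytes, went opposite ways (-2.26, SE 0.426, and 1.66, SE 0.271), and their calls were lost without any one of 4 and 3 samples.

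Some chemokines were called lower. Of 29 chemokines and inflammatory cytokines, 5 fell (17.2%) and 1 rose (3.45%), against 7.36% of all genes lower and 9.5% higher. The median was -0.23 (leave-one-out 2 to 5 fell and 1 rose, 10 fell and 4 rose with the replicate block). Beside CXCL8 and CXCL1, CXCL2 was at 12.2, 11.91 and 11.75 in CEM/WT_BTZ and at 7.86, 7.55 and 6.98 in CEM/BTZ7 (-4.56, SE 0.301, adjusted p = 0.00427). CXCL3 was at 12.63, 12.2 and 11.98 against 9.11, 8.28 and 7.81 (-3.94, SE 0.416, adjusted p = 0.00783), a call lost without CEM/BTZ7 replicate 3. CXCL1, CXCL2 and CXCL3 are close paralogs and their probes may share signal. LTB, the membrane-bound lymphotoxin beta of lymphocytes, went the other way, from 12.43, 12.81 and 11.25 to 15.31, 15.16 and 15.1 (3.23, SE 0.381, adjusted p = 0.00954).

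These chemokine promoters carry binding sites of NF-kappaB in textbook descriptions. Both strands of the same 250 bases were searched for GGGNNTTCC and GGAATTTCC, which stood in 5.81% and 0.428% of all promoters. Of 21 chemokine and cytokine genes with a promoter entry, 5 held the first motif and 6 the second, and the latter included the 4 genes shown because they fell the most (100 bases before the start, 5′ to 3′, motifs in capitals).
CXCL8 (chr4:73740469-73740568, + strand): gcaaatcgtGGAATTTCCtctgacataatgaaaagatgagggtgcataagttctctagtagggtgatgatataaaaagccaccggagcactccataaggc
CXCL1 (chr4:73869293-73869392, + strand): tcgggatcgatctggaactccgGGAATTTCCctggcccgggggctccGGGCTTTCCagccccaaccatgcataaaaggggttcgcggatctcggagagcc
CXCL2 (chr4:74099196-74099295, - strand): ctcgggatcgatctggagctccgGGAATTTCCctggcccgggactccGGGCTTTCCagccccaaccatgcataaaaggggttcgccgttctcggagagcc
CXCL3 (chr4:74038690-74038789, - strand): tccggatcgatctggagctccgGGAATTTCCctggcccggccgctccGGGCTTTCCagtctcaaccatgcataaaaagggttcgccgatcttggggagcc
CXCL8 held 1 match, 91 bases before the start, and the 3 paralogs held both motifs in nearly the same place (77 or 78 and 53 bases before). The other 2 holders of GGAATTTCC in the list were CXCL5 (-0.72, SE 0.45) and CXCL10 (-1.71, SE 0.658), named for their motif, neither of which was called, although the replicate block called both lower. Whether any of these sites was occupied was not measured.

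The NF-kappaB genes themselves were split. Of 16 subunits and feedback inhibitors, 2 fell and 2 rose (12.5% each), against 7.36% of all genes lower and 9.5% higher. The median was -0.29 (leave-one-out 1 or 2 each way), and with the replicate block 6 fell and 3 rose. RELB, a subunit of the alternative pathway, was at 11.88, 11.99 and 11.49 against 8.45, 8.91 and 9.41 (-2.67, SE 0.22, adjusted p = 0.00556). NFKBIA, the inhibitor that holds NF-kappaB in the cytosol, was at 12.91, 12.77 and 12.81 against 14.16, 14.05 and 13.97 (1.21, SE 0.181), but the call was lost without any one of 5 samples.

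**Figure D2:**
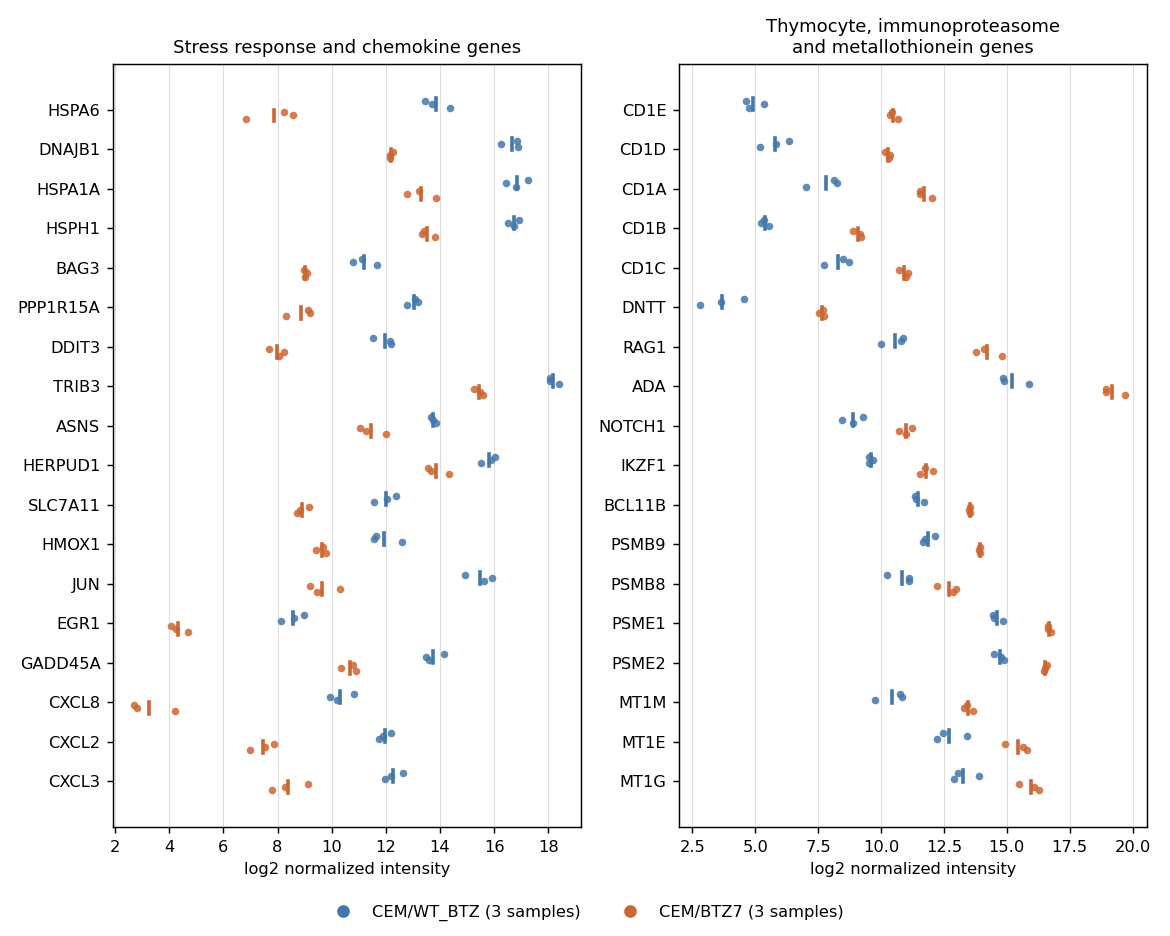
Levels (log2 normalized intensity, horizontal axis) of 18 stress response and chemokine genes (left) and of 18 thymocyte, immunoproteasome and metallothionein genes (right). Each point is 1 sample, blue for CEM/WT_BTZ and orange for CEM/BTZ7, and the vertical bars are group means. The genes on the left are lower in all 3 CEM/BTZ7 samples than in any CEM/WT_BTZ sample, those on the right higher.

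Death genes of the BCL2 family moved in both directions. Of 11 pro-apoptotic members, 4 fell and 2 rose (leave-one-out 2 or 3 fell, 1 or 2 rose, 6 and 3 with the replicate block), with a median of -0.47. PMAIP1 (NOXA), which proteasome inhibitors are known to induce, was at 12.98, 13.17 and 12.83 against 10.26, 10.55 and 10.92 (-2.29, SE 0.202, adjusted p = 0.00612). The pore-forming BAX fell by 2.24 (SE 0.217), with another probe at -0.17 and the mean of its probes at -0.86. BCL2L11 (BIM) went the other way, from 9.34, 9.45 and 9.65 to 11.33, 11.45 and 11.28 (1.82, SE 0.179, adjusted p = 0.00706), with all 5 of its probes positive. Of 11 anti-apoptotic genes, 1 was called, BCL2L2 (BCL-W), which fell from 10.1, 10.05 and 9.81 to 6.6, 6.73 and 7.36 (-2.93, SE 0.198, adjusted p = 0.00427), and with the replicate block 3 fell and 3 rose.

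All 5 CD1 genes, which present lipids and mark cortical thymocytes, were higher in CEM/BTZ7, in every leave-one-out fit as well, with a median of 4.19. CD1E was at 4.62, 5.35 and 4.76 in CEM/WT_BTZ and at 10.43, 10.36 and 10.67 in CEM/BTZ7. CD1D, which presents to natural killer T cells, was at 6.36, 5.82 and 5.2 against 10.17, 10.37 and 10.32 (4.65, SE 0.292, adjusted p = 0.00423). CD1A was at 8.14, 8.24 and 7 against 11.54, 11.53 and 12.04 (4.19, SE 0.227, adjusted p = 0.00323). CD1B was higher by 3.71 (SE 0.211, 2.22 in the value table) and CD1C by 2.78 (SE 0.267), so the rise spanned the whole gene cluster on chromosome 1. The study names CD1A, CD1D and CD1E from these samples, so the list is not independent of that choice.

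V(D)J recombination assembles antigen receptor genes in immature lymphocytes, and several of its genes rose steeply. Of 13 such genes, 5 rose and 2 fell (leave-one-out 4 or 5 rose, 0 to 2 fell, 9 and 2 with the replicate block), with a median of 1.22. The recombinase RAG1 was at 10.89, 10.81 and 9.98 in CEM/WT_BTZ and at 14.09, 13.79 and 14.81 in CEM/BTZ7 (3.96, SE 0.19, adjusted p = 0.00272). DNTT, the terminal transferase that adds bases at the joints, was at 4.57, 3.64 and 2.81 against 7.68, 7.52 and 7.72 (4.21, SE 0.395, adjusted p = 0.00685), with 2 of the 3 parental samples above background and a difference of 1.47 in the value table. ADA, the adenosine deaminase on which thymocytes depend, rose from 14.84, 14.9 and 15.89 to 18.94, 18.93 and 19.71 (3.94, SE 0.422, adjusted p = 0.008), with smaller differences after 75th percentile scaling (2.55) and in the value table (2.28).

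T lineage and NOTCH regulators rose in part. Of 31, 10 rose and 1 fell (leave-one-out 4 to 6 rose and 1 or 2 fell, 16 and 4 with the replicate block), with a median of 0.48. IKZF1, the lymphoid factor Ikaros, was higher by 2.15 (SE 0.218) and BCL11B, a T lineage commitment factor, by 1.99 (SE 0.188). BCL11B stood at 11.33, 11.38 and 11.7 against 13.53, 13.51 and 13.52. The receptor NOTCH1 was higher by 2.11 (SE 0.308), with its call lost without CEM/WT_BTZ replicate 3 or CEM/BTZ7 replicate 3. HEY1, a NOTCH target in many tissues, fell from 7.2, 6.84 and 6.85 to 2.56, 3.17 and 2.79 (-4.11, SE 0.26, adjusted p = 0.00423), where 1 of the 3 CEM/BTZ7 samples exceeded background, so the size of the fall is uncertain, and it was -1.35 in the value table.

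Of the T cell surface and signalling genes, 11 of 35 were higher and 4 lower (leave-one-out 0 to 4 higher, 1 or 2 lower), with a median of 0.53 and 7 higher after 75th percentile scaling. With the replicate block 18 were higher and 7 lower. The CD3 chains CD3G (1.66, SE 0.249), CD3E (1.33, SE 0.269) and CD3D (1.05, SE 0.227) and the kinase LCK (1.23, SE 0.208) were called higher, each with a call that was lost without any one of at least 3 samples. Those of CD3D and LCK were also lost after 75th percentile scaling. CD69, an early activation marker induced by AP-1, was at 11.53, 11.5 and 11.71 against 8.21, 8.24 and 9.14 (-2.93, SE 0.296, adjusted p = 0.00735).

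Markers of T cells and of other cell types were looked up beside the T lymphoblast label. All 7 T cell markers, among them CD2, CD3E and CD5, were above background in all 6 samples. That does not test the label, since 78.3% to 89% of the probes of a sample were above background. In at least 2 of 6 samples so were 7 of 7 NK cell, 6 of 7 erythroid, 6 of 7 myeloid, 5 of 7 B cell and 5 of 7 epithelial markers. Calls between 2 groups of 1 line do not test it either. Of 6 myeloid markers 0 were called by limma (1 lower at an unadjusted p under 0.05), with differences from -0.86 to 2.15. Of 5 B cell, 6 erythroid and 7 NK cell markers 1 each was called, all lower in CEM/BTZ7 (CD79A at -1.83, KLF1 at -0.71 and GNLY at -1.01). Their calls were lost without any one of at least 5 samples, as was that of CD2. Those of KLF1 and GNLY were also lost under several other settings, the value table among them. Among 5 epithelial markers EPCAM was the 1 called, while the keratins KRT8 (-0.92, SE 0.321) and KRT18 (-1.86, SE 0.703) and the claudin CLDN4 (-0.45, SE 0.257) had negative differences that did not pass the test. All 3 were called lower with the replicate block, KRT8 also without the dye term, in the value table and without CEM/WT_BTZ replicate 3, and KRT18 also without CEM/BTZ7 replicate 3.

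The constitutive core of the proteasome carries the catalytic sites in its β ring. Of 7 constitutive β ring genes 0 were called by limma in either direction (2 higher and 0 lower at an unadjusted p under 0.05), against 16.9% of all genes, a share too low for 0 of 7 to stand apart. Their median was 0.3, although the replicate block called 2 higher. PSMB5, the BTZ target, was at 15.13, 15.26 and 15.18 in CEM/WT_BTZ and at 15.6, 15.6 and 15.98 in CEM/BTZ7. The groups did not overlap, but the difference of 0.61 (SE 0.192, adjusted p = 0.0903) did not pass the test, although it did with the replicate block and with an intensity trend in the variance. The difference was 0.29 after 75th percentile scaling and 0.16 in the value table. The β ring median was -0.17 after 75th percentile scaling and in the value table (which called 3 lower), so its sign rested on the normalization.

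In the α ring, 2 of 8 genes rose (leave-one-out 1, and 3 higher and 1 lower with the replicate block), both on chromosome 14. PSMA6 was at 15.97, 16.16 and 16.87 against 18.71, 18.84 and 18.64 (2.24, SE 0.232, adjusted p = 0.00753), a call that was lost after 75th percentile scaling and in the value table. PSMA3 was at 13.95, 13.94 and 13.91 against 15.05, 14.96 and 14.92 (1.04, SE 0.174, adjusted p = 0.0201), and its call was lost without any one of the 6 samples, although the samples of each group hardly differed.

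The 19S particle, which recognises and unfolds ubiquitinated proteins, had 0 of 5 ATPase genes called by limma (0 at an unadjusted p under 0.05, 2 lower with the replicate block) and 3 of 14 non-ATPase genes lower (leave-one-out 0), with a median of -0.36 for the latter. The lower genes were PSMD3 (-1.24, SE 0.283), PSMD12 (-0.93, SE 0.18) and the deubiquitinase PSMD14 (-0.85, SE 0.203). The calls of all 3 were lost without any one of the 6 samples, and the replicate block called 7 lower and 1 higher.

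The immunoproteasome replaces the catalytic β subunits in lymphoid and interferon-exposed cells, and 4 of 5 immunoproteasome and PA28 genes were higher (leave-one-out 2 to 4), with a median of 1.84. PSMB9 (β1i) was at 12.13, 11.76 and 11.68 against 13.95, 13.88 and 13.92 (2.11, SE 0.206, adjusted p = 0.00706). PSMB8 (β5i) was at 10.23, 11.13 and 11.1 against 12.22, 12.99 and 12.85 (1.84, SE 0.385, adjusted p = 0.0339), with its call lost without any one of 5 samples, and PSMB10 (β2i) at 12.98, 13.79 and 13.07 overlapped the CEM/BTZ7 levels of 13.46, 14.16 and 13.67 (0.51, SE 0.343) and was called higher with the replicate block alone. The PA28 activator genes PSME1 and PSME2 were higher by 2.03 (SE 0.201) and 1.75 (SE 0.191), the latter with a call lost without CEM/BTZ7 replicate 3.

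**Figure D3:**
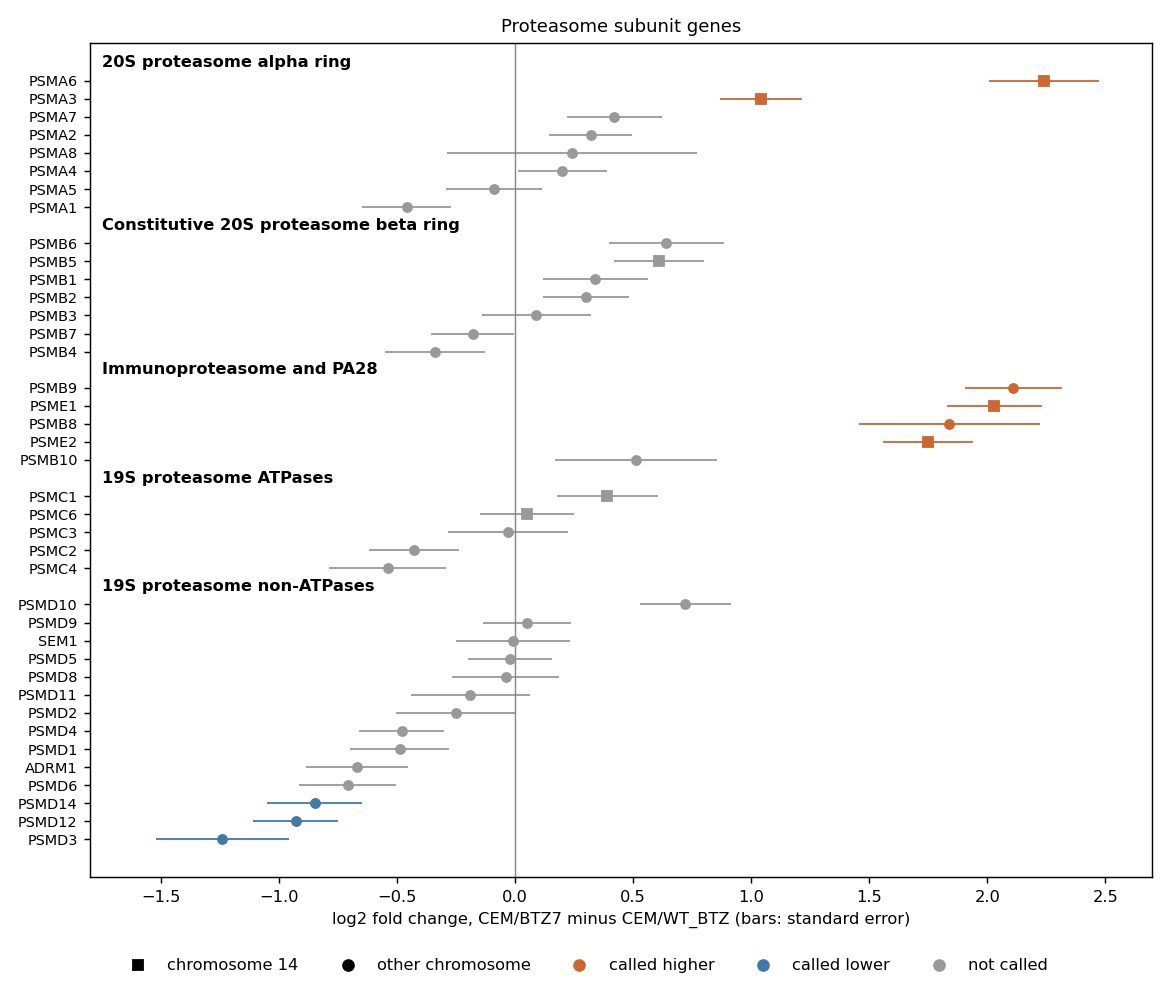
Log2 fold change (CEM/BTZ7 minus CEM/WT_BTZ, horizontal axis, bars for 1 standard error) of the measured proteasome genes, grouped by part of the particle. Squares are genes on chromosome 14, and orange, blue and grey are called higher, called lower and not called. PSMA6 at 2.24 and PSMB9 at 2.11 lie farthest to the right, and PSMD3 at -1.24 farthest to the left.

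Of 15 genes of class I antigen presentation, 4 rose and 0 fell (leave-one-out 0 to 3 rose and 0 fell, 7 rose and 1 fell with the replicate block), with a median of 0.49 (-0.05 with the mean of all probes). TAP1, the peptide transporter, was at 12.02, 12.06 and 12.06 against 13.37, 13.45 and 13.45 (1.38, SE 0.173, adjusted p = 0.0108), a call lost without CEM/BTZ7 replicate 2 or 3. Of 34 interferon-stimulated genes, 8 were higher (23.5%) and 2 lower (5.88%), against 9.5% and 7.36% of all genes. Their median was 0.1 (leave-one-out 4 or 5 higher and 0 or 1 lower, 13 and 4 with the replicate block). USP18, which removes ISG15, was at 7.88, 7.46 and 7.07 against 11.31, 11.29 and 10.7 (3.63, SE 0.328, adjusted p = 0.00628), and the antiviral GTPase MX1 was higher by 3.04 (SE 0.349). IFIT2 had a difference of -2.87 (SE 0.623), with its call lost without any one of 5 samples, after 75th percentile scaling and with the mean of its probes.

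Metallothioneins, cysteine-rich proteins that bind zinc and copper, were mostly higher. Of 11 genes 9 rose and 0 fell, with a median of 2.39. MT1M was at 10.76, 10.82 and 9.77 in CEM/WT_BTZ and at 13.42, 13.29 and 13.64 in CEM/BTZ7 (3.22, SE 0.235, adjusted p = 0.00444). MT1E (2.96, SE 0.361, or 1.58 with the mean of its probes) and MT1G (2.85, SE 0.324) followed, both with a call lost without CEM/WT_BTZ replicate 3 or CEM/BTZ7 replicate 3. The count fell to 2 in the lowest leave-one-out fit, and the replicate block called 9 higher and 1 lower. The MT1 genes are near-identical copies, so their probes may measure partly the same transcripts and are not independent.

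Detoxifying enzymes were higher in part. Of 18 aldehyde dehydrogenase and related genes, 7 rose and 0 fell (leave-one-out 3 to 5 rose and 0 or 1 fell, 10 and 1 with the replicate block), with a median of 0.67. ALDH2, the mitochondrial enzyme of acetaldehyde oxidation, was at 7.88, 7.88 and 8.2 against 12.66, 12.67 and 12.55 (4.57, SE 0.177, adjusted p = 0.00221), with both probes above 4. ALDH7A1 was at 7.91, 7.58 and 5.95 against 12.04, 12.15 and 12.07. DHRS2, a short-chain dehydrogenase, was higher by 3.15 (SE 0.688), with parental levels of 11.46, 11.61 and 8.77 a value of 1.61 without CEM/WT_BTZ replicate 3 and a call that was lost without any one of 4 samples.

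Of 16 glutathione transferase genes, 7 rose and 1 fell (leave-one-out 3 to 5 rose and 0 or 1 fell), with a median of 0.6, and 4 rose after 75th percentile scaling and in the value table. GSTM3 was at 10.51, 10.95 and 10.15 against 13.62, 13.92 and 13.79 (3.34, SE 0.252, adjusted p = 0.00466), although another of its probes gave 0.29. GSTM1 (2.59, SE 0.227) and GSTA4 (1.94, SE 0.193, 1.27 in the value table) rose as well, and GSTM genes share sequence. Among 14 drug efflux transporters 4 rose and 1 fell (median -0.01, leave-one-out 1 or 2 rose and 0 or 1 fell, 5 and 3 with the replicate block), with 2 rising after 75th percentile scaling and in the value table. The most was in ABCG1, a sterol exporter (2.19, SE 0.186, or 1.42 with the mean of its probes).

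Genes of the actin cytoskeleton held several of the largest rises. Of 45 actin regulators and thymosins, 13 rose and 2 fell (leave-one-out 5 to 9 rose and 0 or 1 fell, 16 and 5 with the replicate block), with a median of 0.17 that was close to that of all genes. Besides TMSB15A and ENAH, ARHGEF26 was at 7.6, 7.94 and 6.22 against 11.22, 11.27 and 11.27 (4.26, SE 0.383, adjusted p = 0.00628). SCRN1 (secernin 1) was at 7.51, 7.63 and 6.84 against 11.02, 11.2 and 11.39 (4.04, SE 0.205, adjusted p = 0.00292). AIF1L, an actin-bundling protein, was at 7.36, 7.42 and 8.56 against 12.02, 12.12 and 11.83 (3.97, SE 0.266, adjusted p = 0.00427). The study names these genes from the same samples, under cytoskeleton regulation and vesicle migration, so their inclusion is not independent of their values. In the list of MARCKS family and protein kinase C genes, 2 of 13 rose (15.4%) and 1 fell (7.69%), against 9.5% and 7.36% of all genes. In the leave-one-out fits 1 to 3 rose and 0 or 1 fell, and with the replicate block 4 and 2. MARCKS was the 1 gene of that list with a difference over 4-fold.

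Of 35 genes of vesicle secretion and the ESCRT machinery, 7 fell and 2 rose (leave-one-out 2 to 4 fell and 0 or 1 rose, 12 and 5 with the replicate block), with a median of -0.29. The list did not hold SCRN1 or MARCKS, and its largest difference was 1.37. SV2B, a synaptic vesicle glycoprotein, was at 13.24, 13.29 and 12.82 in CEM/WT_BTZ and at 8.88, 8.86 and 8.82 in CEM/BTZ7 (-4.2, SE 0.202, adjusted p = 0.00272), with hardly any spread in the resistant samples. STX1A, a syntaxin of regulated exocytosis, fell by 1.68 (SE 0.201), with its call lost without CEM/BTZ7 replicate 3. The ESCRT-III genes CHMP2A (1.37, SE 0.281) and CHMP4A (1.07, SE 0.21) were called higher, but both calls were lost without any one of the 6 samples and after 75th percentile scaling.

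Lists of growth genes held more members called higher than lower. MYC was at 12.32, 12.22 and 12.33 in CEM/WT_BTZ and at 15.36, 15.07 and 15.02 in CEM/BTZ7 (2.82, SE 0.192, adjusted p = 0.00427), although another of its 3 probes gave -0.8 and their mean 0.87. Of 35 MYC targets and ribosome biogenesis genes, 14 rose and 0 fell (leave-one-out 2 to 7 rose and 0 or 1 fell, 7 rose and 1 fell after 75th percentile scaling, 21 rose and 2 fell with the replicate block), with a median of 0.84. MYC itself is in this list and among the 14. NOLC1, a nucleolar chaperone, was higher by 1.7 (SE 0.236), with its call lost without CEM/BTZ7 replicate 3. TERT, the telomerase catalytic subunit and a known MYC target, was at 9.47, 9.64 and 9.05 against 12.89, 13.1 and 13.57 (3.98, SE 0.186, adjusted p = 0.00272).

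Of 45 DNA replication genes, 18 rose and 0 fell (leave-one-out 2 to 9 rose and 0 fell, 31 rose and 2 fell with the replicate block), with a median of 0.72. POLE2, a subunit of DNA polymerase epsilon, was at 9.16, 9.07 and 9.84 against 11.96, 11.69 and 12.05 (2.46, SE 0.277, adjusted p = 0.00887), and TYMS, thymidylate synthase, was higher by 1.76 (SE 0.234), a call lost without CEM/BTZ7 replicate 3. Of 43 mitosis genes, 4 rose (9.3%) and 2 fell (4.65%), no more than the 9.5% and 7.36% of all genes. Their median was 0 (leave-one-out 0 or 1 rose and 0 fell). With the replicate block 12 mitosis genes rose and 5 fell, close to or below the shares of all genes in that fit. Among 20 CDK inhibitors and G1 cyclins, 4 rose and 2 fell (leave-one-out 1 to 3 rose and 1 or 2 fell, 7 and 6 with the replicate block). The cyclin CCND3 was at 13.11, 13.05 and 12.43 against 14.73, 14.72 and 14.72 (1.97, SE 0.223, adjusted p = 0.009), and the CDK inhibitor CDKN1C fell by 2.22 (SE 0.254), a call lost without CEM/BTZ7 replicate 3.

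Nucleotide and lipid synthesis genes were also called higher more often than lower. Of 23 nucleotide synthesis genes, 11 rose and 0 fell (leave-one-out 2 to 9 rose, 6 after 75th percentile scaling, 17 rose and 0 fell with the replicate block), with a median of 0.93. PFAS, an enzyme of purine synthesis, was at 11.18, 11.19 and 11.46 against 13.18, 13.04 and 12.92 (1.69, SE 0.176, adjusted p = 0.00767). Of 27 cholesterol and fatty acid synthesis genes, 13 rose and 0 fell (leave-one-out 4 to 6 rose and 0 fell, 18 rose and 1 fell with the replicate block), with a median of 1.03. INSIG1, which retains the sterol sensor in the ER, was at 11.1, 11.13 and 11.4 against 13.32, 13.41 and 13.51 (2.18, SE 0.196, adjusted p = 0.00628). SREBF1, the factor that drives fatty acid synthesis genes, was higher by 2.03 (SE 0.205), and the desaturase FADS2 by 1.99 (SE 0.191).

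Ribosomal protein genes showed a result that rested on the normalization. Of 38 cytosolic ribosomal protein genes 20 were called higher and 0 lower, with a median of 0.84, with 2 to 11 higher in the leave-one-out fits, but 0 were higher after 75th percentile scaling (median -0.14) and 0 higher and 1 lower in the value table (median -0.17). RPS25 lay at 16.72, 16.73 and 16.98 against 18.82, 18.9 and 18.56 (1.86, SE 0.173), a call that was lost under both. No direction is given for this list, nor for other genes of the top intensity range such as FBL, a nucleolar methyltransferase (1.99, SE 0.229), and the histone gene H4C3 (2.62, SE 0.227), whose calls were lost under the same settings. Of 36 mitochondrial ribosomal protein genes 5 rose and 1 fell, and of 35 respiratory chain genes 7 rose and 0 fell, with medians of 0.51 and 0.6. In the leave-one-out fits 0 or 1 of either list rose, after 75th percentile scaling 1 and 0, and with the replicate block 22 and 23.

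Of 34 glycolytic and hypoxia-inducible genes, 6 were higher (17.6%) and 3 lower (8.82%), against 9.5% and 7.36% of all genes. Their median was 0.06 (leave-one-out 2 to 5 higher and 1 to 4 lower, 10 and 10 with the replicate block). HK2, a hexokinase, rose from 11.03, 11.01 and 10.81 to 12.85, 12.72 and 12.69 (1.82, SE 0.187, adjusted p = 0.00741). LDHA, lactate dehydrogenase, was higher by 1.85 (SE 0.205), with its call lost without CEM/BTZ7 replicate 3. The hypoxia and stress gene NDRG1 fell from 14.34, 14.36 and 13.96 to 12, 12.03 and 12.56 (-1.87, SE 0.174, adjusted p = 0.00676).

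**Figure D4:**
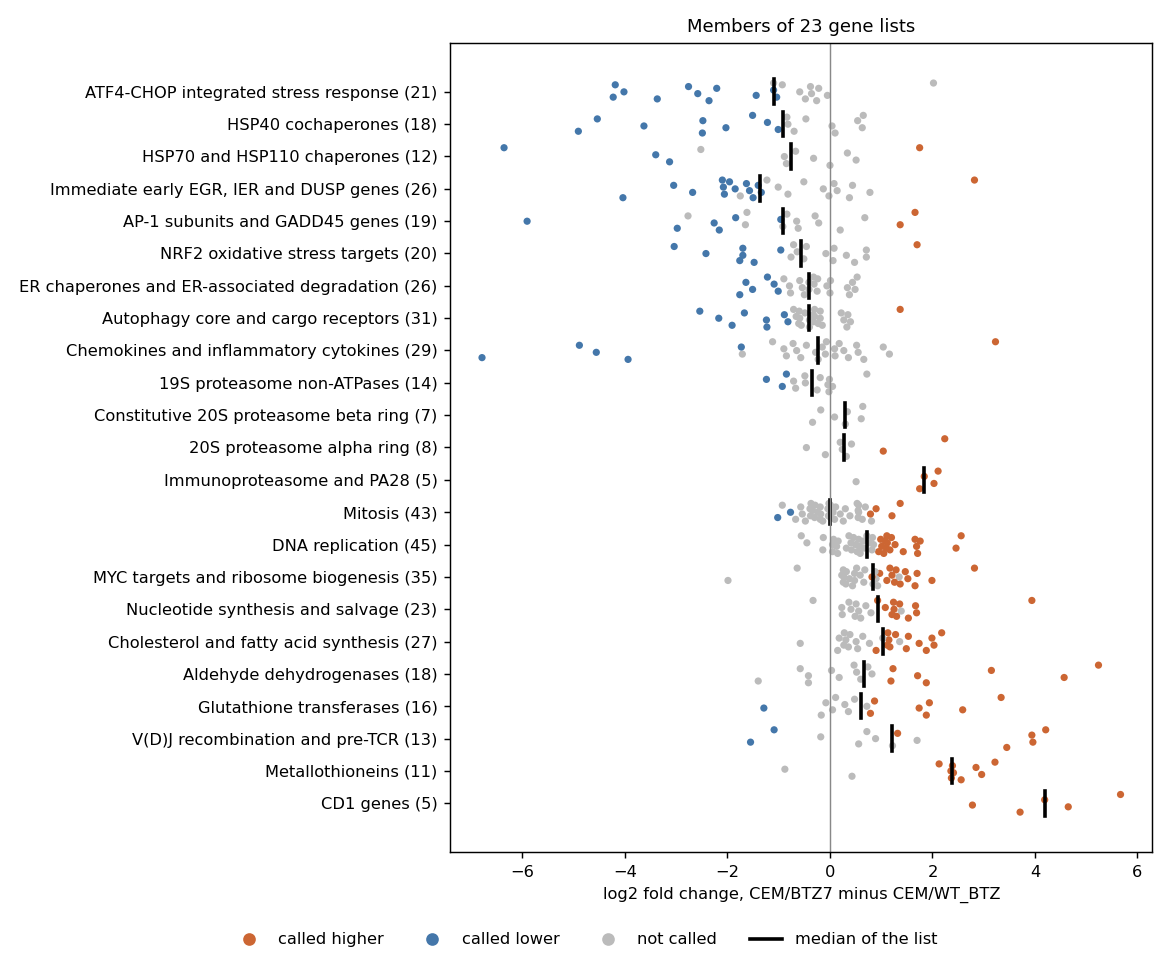
Log2 fold change (CEM/BTZ7 minus CEM/WT_BTZ, horizontal axis) of the members of 23 gene lists, with the number measured in brackets. Each point is 1 gene (orange called higher, blue called lower, grey not called), and black bars are list medians. Medians run from -1.37 (immediate early genes) to 4.19 (CD1 genes), against 0.014 for all genes.

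Sorted by chromosome, 1 stood apart. DNA copy number of CEM/BTZ7 was profiled by the study on other arrays, which are not analysed here. For the chromosome that stood apart, the study reports that nearly all of the long arm was duplicated. The 533 genes of chromosome 14 had a median log2 fold change of 0.327, and 114 (21.4%) were called higher and 18 (3.38%) lower, against 9.5% and 7.36% over all genes. The same median within same-numbered samples was 0.345, 0.288 and 0.412. It was the highest of the 23 chromosomes under every setting run, though as low as 0.177 in the value table. The leave-one-out counts were 26 to 63 higher and 6 to 14 lower, and the replicate block gave 207 and 58.

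Of 21 consecutive windows of 25 genes, 20 had a positive median, and the highest, from VCPKMT to FERMT2, had one of 0.93. Single genes of the chromosome moved in both directions. SALL2, a zinc finger factor, was at 8.54, 8.34 and 7.83 against 11.73, 11.62 and 11.95 (3.67, SE 0.196, adjusted p = 0.0032), whereas NRXN3, a neurexin, fell from 10.63, 10.99 and 10.55 to 5.95, 6.5 and 6.66 (-4.24, SE 0.248, adjusted p = 0.00364). PSMA3, PSMA6, PSMB5, PSME1, PSME2, BCL11B, POLE2, NFKBIA, HSPA2, DHRS2, CHMP4A, BATF and BCL2L2 also lie on chromosome 14. Chromosome 21 had the next median (0.198), followed by chromosome 4 (0.136). The chromosomes named next are ones on which the study reports other copy changes, some in only part of the chromosome. Taken whole, chromosomes 5 (-0.035), 11 (0.018) and X (0.05) lay close to the median of all genes. Such a median cannot show a change in part of a chromosome. Toward the end of chromosome 11, the windows from OR8D2 to PUS3 and from CDON to ZBTB44 had medians of 0.45 and 0.27. The windows before them, from CXCR5 to TRIM29 and from OAF to OR8D1, had medians of -0.24 and -0.08. Genomic copy number was not measured in these samples, and its part in the shift was not tested.

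**Figure D5:**
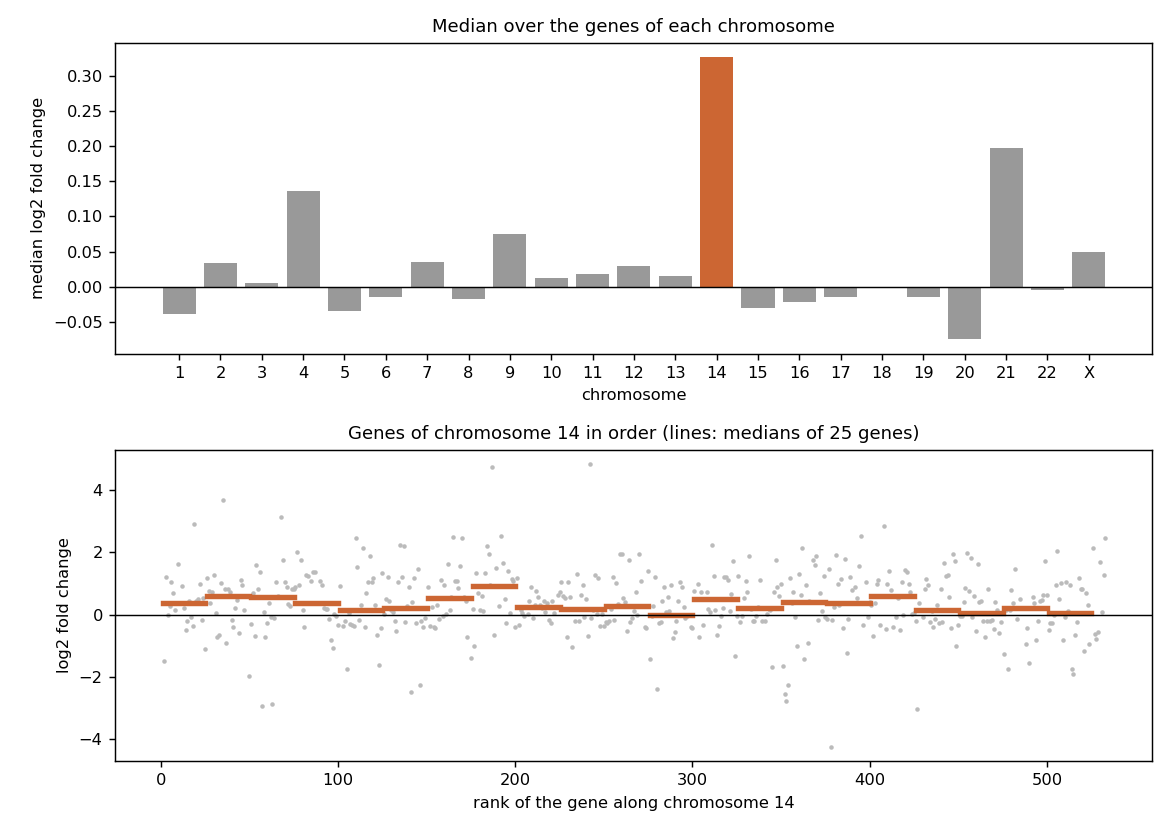
Top, median log2 fold change (CEM/BTZ7 minus CEM/WT_BTZ, vertical axis) over the genes of each chromosome, with chromosome 14 (0.327) in orange. Bottom, log2 fold change of each gene of chromosome 14 (grey points) by its rank along the chromosome, with medians of 25 consecutive genes as orange lines, of which 20 of 21 lie above 0.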

How the data were processed

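RNA of 6 samples was measured on Agilent 2-colour whole genome arrays. The authors deposited 1 table of spot intensity values as the scanner software wrote them, not normalized between arrays, and a value table on the log2 scale that the authors had background-corrected, loess-normalized within arrays and quantile-normalized between them. Software versions of that processing are not given in the sources used here.

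Intensities of the 6 samples were quantile-normalized and log2-transformed (R 4.3.3, limma 3.58.1). Of 41000 probes, the 36720 that exceeded the 95th percentile of the negative controls in at least 2 of 6 samples were kept. Probes were named through gene identifiers (29203), accessions (11) or as deposited (30), and 84 with several genes and 11672 with none were left out. A gene took its brightest kept probe, and for 197 called genes another probe had the opposite sign. limma was fitted on group and dye (residual df 3, prior df 2.35) with Benjamini-Hochberg adjustment over 17165 genes. The dye term called 0 genes in limma (596 at an unadjusted p under 0.05).

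Deviations from the group means correlated at 0.535, 0.429 and 0.295 between samples of the same number and at -0.398 to 0.017 otherwise. The numbers were therefore taken to pair the samples in the replicate block and in the chromosome 14 differences within same-numbered samples. The main limma fit, which gave the SE and adjusted p-values above, did not use this pairing. The replicate block with the dye left 1 residual df. The pairing rests on the data, since neither the meaning of a number nor the sharing of arrays is labelled. The CEM/BTZ7 intensities of replicates 1, 2 and 3 correlated most with replicates 2, 3 and 1 of the value table (r = 0.992 to 0.995, against 0.969 to 0.976 for the same name), so the dye of a CEM/BTZ7 sample is not certain, and a fit with the dye by that match was run as an alternative.

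Named genes were taken from the 12 largest and 12 smallest called differences that did not overlap between groups, up to 3 called members each way of every list, members of lists of up to 10, and genes the study names for this comparison. Not every gene that qualified is named, FKBP5, BAG1, SHMT1, BATF2, RGS16, ZNF239, HTRA3 and CTHRC1 among those left out. HSPA8, DNAJB6, CXCL5 and CXCL10 were added after their values were seen. Gene lists, the comparison and its tests were chosen with earlier results of these data known. Some sex-linked transcripts are not reported here. The script was tested on simulated data. The number of arrays limits the precision.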

Additional observations from a re-analysis of the deposited data

How the results depend on the processing

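The count of 1630 genes higher and 1264 lower turned to more lower than higher genes in the value table and without CEM/BTZ7 replicate 3. The deposited value table gave 1755 higher and 1909 lower and the fit without the dye term 2334 higher and 1966 lower. The replicate block with the dye gave 3854 higher and 3441 lower, and without the dye 3136 and 2795. Leaving out 1 sample gave 355 to 833 higher and 287 to 674 lower, with fewer samples in each fit, and 0 called genes changed sign. Of the 2894 called genes, 19 changed sign after 75th percentile scaling, 26 in the value table, 15 with the mean of probes, 8 with the floor and 1 without the filter, none of them named here as called. The median of chromosome 14 was 0.177 in the value table and 0.315 to 0.363 with 1 sample left out. HSPA8, at 0.00 and not called, was at 0.04 without the dye term, with or without the replicate block, at 0.12 in the fit of all 6 groups and at -0.59 to 0.59 with 1 sample left out, where 3 of 6 fits were positive (0.01, 0.27 and 0.59), and it was called lower after 75th percentile scaling (-1.38) and in the value table (-1.7). The cause of these differences was not tested. The replicate block with the dye ended no call of a gene named here. That fit left 1 residual df, called 7295 genes and kept 2847 of the 2894 calls, so keeping the named calls says little. Dim probes limit CXCL8, HEY1, MCTP1, B3GNT5, DNTT and ENAH, which were below background in part of 1 group.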
